A study of Mus musculus with 4 samples.

Results

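Cholesterol and fatty acids are built from the same cytosolic acetyl-CoA, and the 28 genes described here encode the enzymes of both routes with the factors that control their transcription. They were picked by symbol, with no threshold on a measured value, from the 32285 genes of the count table, and all 28 were present in every library. The mevalonate and sterol branch held 18 genes (Acat2, Hmgcs1, Mvk, Pmvk, Mvd, Idi1, Fdps, Fdft1, Sqle, Lss, Cyp51, Tm7sf2, Msmo1, Nsdhl, Hsd17b7, Ebp, Sc5d and Dhcr7). The fatty acid branch held 6 genes (Acly, Acaca, Fasn, Elovl6, Scd1 and Scd2). A further 4 genes were grouped as regulators and carrier (Insig1, Srebf1, Srebf2 and the sterol carrier Stard4).

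The route is a long chain of enzymes under one switch. Srebf2 encodes SREBP2, which drives the sterol genes, and Srebf1 encodes SREBP1, which drives the fatty acid genes. When sterols are plentiful, INSIG1 holds the precursors in the endoplasmic reticulum, and the targets, among them Insig1 itself, are transcribed less. In leukocytes the products serve membrane growth, protein prenylation and the making of oxysterols, and stearoyl-CoA desaturases (Scd1, Scd2) turn saturated into monounsaturated fatty acids.

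The cells were CD45+ leukocytes sorted from the hindpaws of male mice on the C57BLKS/J background. DB mice were homozygous for the db allele of the leptin receptor gene Lepr in all tissues, which leads to obesity and diabetes, and WT mice were littermates with the WT allele of Lepr. Mice of both genotypes were taken at 12 and at 21 weeks of age, and a group is named by both (12-week-WT, 21-week-DB and so on). Each of the 4 groups was 1 droplet library, made from cells of 2 to 3 mice that were pooled, so no difference between groups had a replicate check and none was tested.

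After barcodes under 200 genes or over 10% mitochondrial UMIs were dropped, 27800 of 30793 remained, 5271 to 8707 per library. A UMI marks 1 captured transcript. Levels are the summed UMIs of a gene in each 1000000 UMIs of the same cells (CPM), and their exact 95% intervals reflect counting error alone. The kept cells held 46435961 to 67723605 UMIs per library, and the median cell of 21-week-DB (5355 UMIs) was shallower than that of the other libraries (7193.5 to 8000.5). Each cell was assigned to a class by 5 marker genes per class, none of them a member, and 22133 cells were gated. A score within 0.05 of the limits was found for 20.7% of the kept cells. The markers did mark their gates: C1qa was detected in 98.4% of gated macrophages against 14.5% of other gated cells, and Cma1 in 99.95% of gated mast cells against 6.32%. Among the weaker markers were Xcl1 in dendritic epidermal T cells (DETC, 33.9%) and Il13 in ILC2 (34.4%). Libraries shared 5 to 38 barcode sequences pairwise, except for 146 between the pair at 21 weeks. Every run of 4 values gives the 12-week libraries first and WT before DB within an age. The summed level of 5 cycling markers was 180, 116, 176 and 58.5 CPM, lowest in 21-week-DB, and that of 5 early response genes was 3854, 2863, 4475 and 5177, highest there. Their part in the differences below was not tested, apart from the settings without cycling cells.

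As a whole the module took 840, 783, 712 and 589 CPM in all kept cells. Of the 9 classes with at least 50 gated cells in every library, monocytes held the lowest level in each library, at 550, 481, 481 and 305 CPM. DETC held 1314, 1493, 1155 and 1028 CPM and B cells 1333, 1230, 1550 and 899, and these classes were the highest of the 9 in every library. In between were macrophages (718, 661, 695 and 499), dermal γδ T cells (778, 747, 571 and 544), ILC2 (835, 736, 671 and 542), αβ T cells (838, 928, 646 and 602), cDC2 (906, 779, 796 and 529) and mast cells (1062, 1025, 855 and 751). The levels of dermal γδ T cells and ILC2 at 21 weeks in DB mice, 544 (526 to 563) and 542 (530 to 555), could not be told apart by their intervals.

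**Figure D1:**
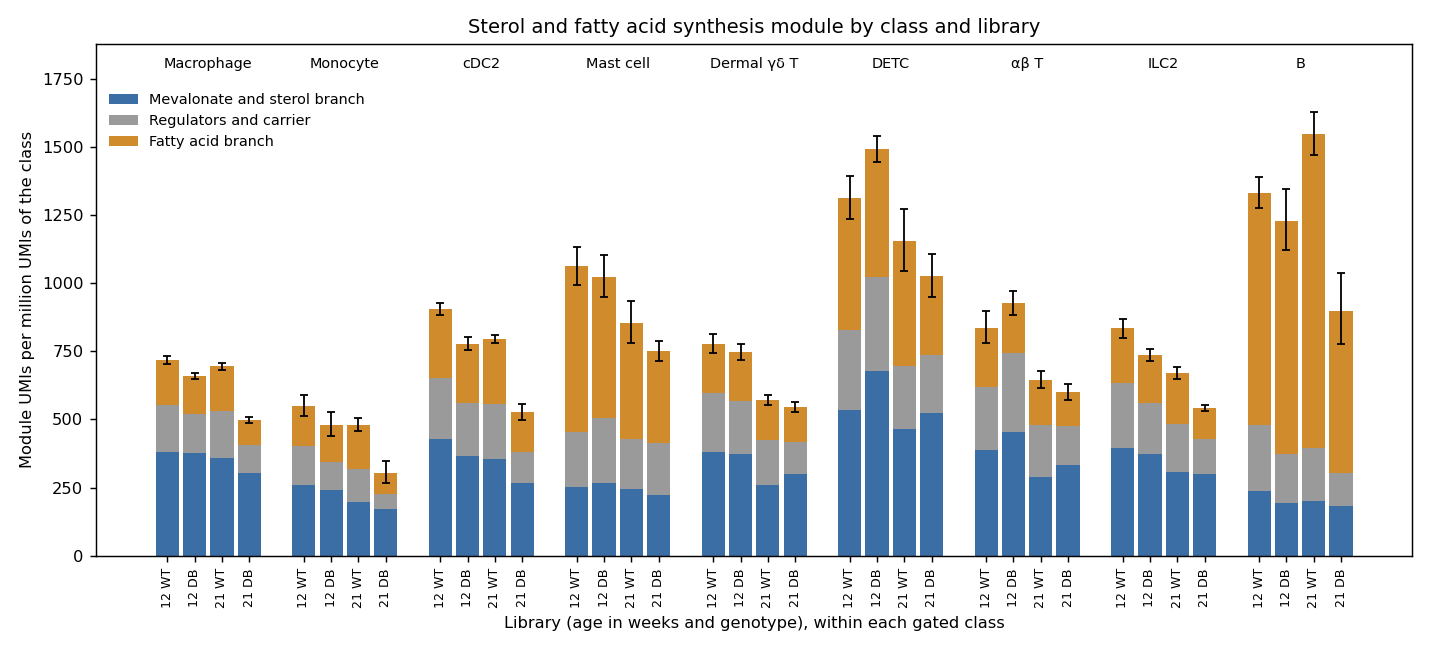
Summed level of the 28 genes in CPM in each gated class (vertical axis) in the 4 libraries (horizontal axis), stacked by branch, with the exact 95% counting interval of the total. DETC and B cells stood highest, DETC with a tall sterol part and B cells with a tall fatty acid part, and the 21-week-DB bar was the lowest of its class in all 9 classes.

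The branches differed between those high classes. In DETC the sterol branch alone reached 533, 678, 464 and 525 CPM, above that of the other 8 classes in every library. In B cells the sterol branch was low, at 237, 195, 201 and 181 CPM, while the fatty acid branch was at 853, 856, 1154 and 595. The regulators and carrier held about as much as the sterol branch there, with 242, 179, 194 and 124 CPM. Mast cells too leaned to the fatty acid branch, with 607, 520, 428 and 336 CPM.

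Srebf2 and Acly, the citrate lyase that makes cytosolic acetyl-CoA, were shared leaders. Acly was among the 5 members of highest mean level in 8 of the 9 classes, DETC being the exception, and Srebf2 in all 9. In macrophages the others were Ebp, Insig1 and Hmgcs1, and in monocytes Insig1, Ebp and Msmo1. In cDC2 they were Scd2, Hmgcs1 and Msmo1, and in αβ T cells Insig1, Hmgcs1 and Sc5d. Sc5d, a late desaturase of the sterol ring, led in dermal γδ T cells (with Stard4 and Ebp) and in ILC2 (with Scd2 and Insig1). In all kept cells Acly stood at 90.02, 84.1, 73.6 and 52.2 CPM and Srebf2 at 91.3, 78.6, 80.8 and 45.9. At the other end, Tm7sf2, a sterol reductase, had 3.01, 2.27, 2.50 and 2.09 CPM and was too low to test. Each UMI is counted from the 3′ end of a transcript, so these levels do not scale with gene length.

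To ask which classes carry a member more or less than the rest, counts were summed per library and class, and each class was compared with the equally weighted mean of the other 8 within the 4 libraries (edgeR quasi-likelihood test with library as a block, Benjamini-Hochberg over 12208 genes, called at an adjusted p under 0.05). The libraries differ in age and genotype, so the spread behind these p-values holds both. Of the 27 members tested, 26 were called higher in some class and lower in another, as were 84.2% of all genes, and Nsdhl, a sterol decarboxylase, was called in none.

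DETC, the γδ T cells of the epidermis, had the most members called higher. Among the 27 members, 17 were higher and 2 lower, against 25.5% and 23.9% of all genes tested, and the median member was 0.80 higher on the log2 scale where the median gene was -0.10. Of these, 10 members were at least 2-fold higher (15.1% of all genes), 7 of them in the sterol branch, from Acat2 at its entry to the late enzyme Hsd17b7, and 3 in the fatty acid branch. The largest was Elovl6, which elongates palmitate to stearate, at 101, 133, 115 and 122 CPM in DETC against at most 22.2 in any library of the other 8 classes (log2 difference 3.78, SE 0.18, adjusted p = 1.47e-18). Cyp51, the lanosterol demethylase, stood at 111, 177, 87.1 and 103 CPM (2.41, SE 0.16, adjusted p = 5.77e-15). No library of the other 8 classes exceeded 45.4 CPM for Cyp51, so for both genes the DETC values did not overlap those of these classes. The share of all genes without such an overlap was not counted.

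Early mevalonate enzymes were higher with them in DETC: Acat2 by 1.24, Mvk by 2.12 and Idi1 by 1.32 on the log2 scale. So were Sqle, the rate-limiting squalene epoxidase (1.79), Lss, which closes the sterol ring (1.42), and Hsd17b7 (1.10). The fatty acid synthase Fasn (1.84) and Scd2 (1.24) were higher too, each with an adjusted p of 9.49e-05 or less over these 8 members. All 4 regulators and carrier were called higher at under 2-fold. Lss lost its call without 12-week-DB, the library with 459 of the 775 DETC (adjusted p = 0.05319), and without any 1 library the count of higher members lay between 12 and 17. Mvk was uneven over the libraries and stood at 13.6, 21.9, 19.7 and 61.7 CPM. Mvd, the decarboxylase between Pmvk and Idi1 in the route, was lower, with 0, 11, 1 and 0 UMIs in the 4 libraries. The 21-week-WT value of this class rests on 53 cells.

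**Figure D2:**
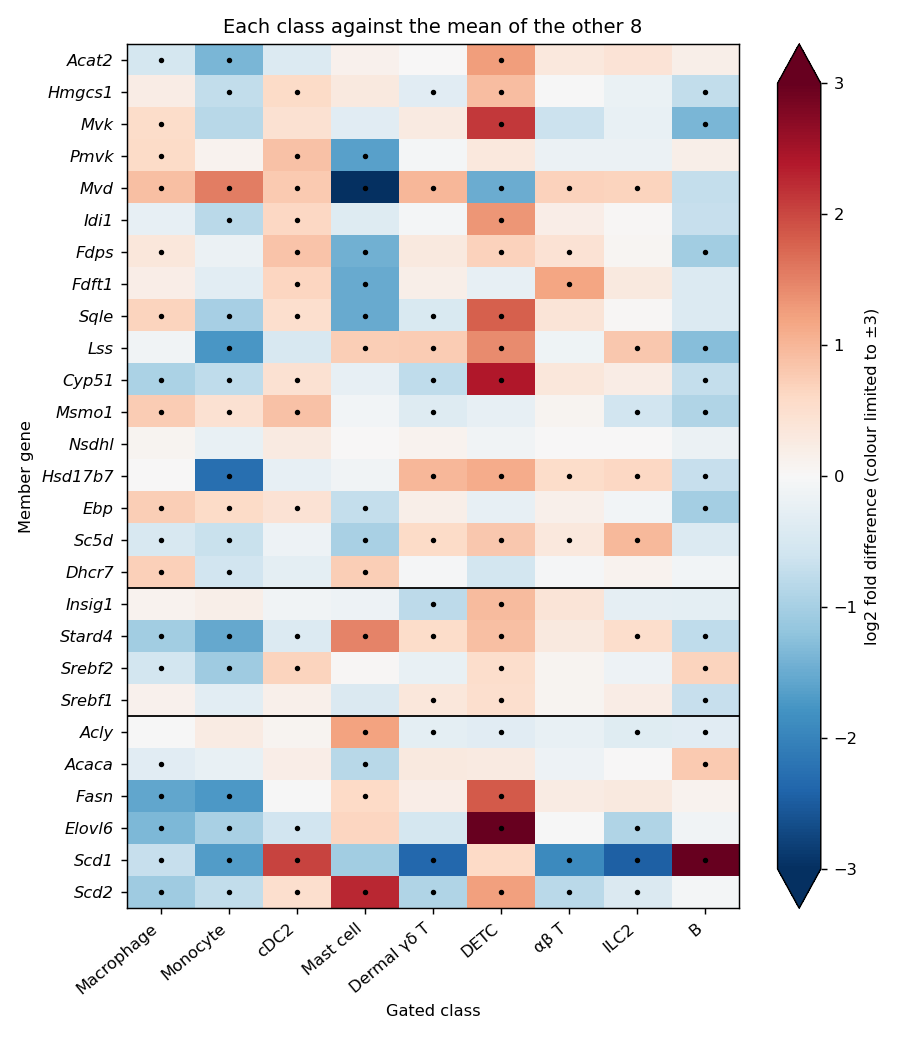
Log2 difference of each tested member (rows, with sterol branch above, regulators in the middle and fatty acid branch below) between 1 class (columns) and the mean of the other 8, with a dot where the adjusted p was under 0.05. DETC carry red in most rows with Elovl6 at 3.78, and Scd1 is split between B cells (7.49) and cDC2 (2.03) on the high side and dermal γδ T cells (-2.36) and ILC2 (-2.46) on the low side.

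Scd1 and Scd2, neighbouring paralogs on chromosome 19 (Scd2 at chr19:44293674-44306864 on the plus strand, Scd1 at chr19:44394455-44407879 on the minus strand, mm10), were divided between cell types. Scd1 was the leading member in B cells, at 641, 646, 959 and 490 CPM, and made up 48.1%, 52.5%, 61.9% and 54.5% of the module there. No library of another class among the 9 exceeded 24.9 CPM. The difference was 7.49 on the log2 scale (SE 0.16, adjusted p = 2.18e-28). B cells were the only class where Scd1 exceeded Scd2 in every library. Whether these B cells came from the paw or the marrow was not tested.

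cDC2, the dendritic cells that present antigen to CD4 T cells, came second for Scd1, with 18.1, 22.0, 20.6 and 24.9 CPM (log2 difference 2.03, SE 0.21, adjusted p = 4.37e-10). Scd1 was called lower in macrophages (log2 difference -0.68), dermal γδ T cells (4, 6, 14 and 4 UMIs), ILC2 (8, 9, 9 and 11), αβ T cells (8, 2, 5 and 2) and monocytes (3, 0, 9 and 2). These counts are near the level that free RNA could leave: with 10% of each class taken as the profile of its library, no Scd1 UMI was left in dermal γδ T cells or ILC2, and the low calls of these classes, αβ T cells and monocytes were lost (each with an adjusted p of 1 in edgeR). The call in monocytes was also lost with the looser gate (adjusted p = 0.0639). In contrast, 994, 251, 896 and 103 of 1000, 252, 898 and 103 UMIs were left in B cells. Each low call of Scd1, that of macrophages included, was made against a mean that held B cells. No setting left B cells out, so their part in these calls was not tested.

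Scd2, by contrast, was highest in mast cells in every library. Its level there was 317, 274, 249 and 135 CPM, against 41.7, 21.7, 53.3 and 15.1 in macrophages (log2 difference from the mean of the other classes 2.26, SE 0.14, adjusted p = 1.30e-15). It was called higher in cDC2 and DETC as well, and lower in macrophages, monocytes, dermal γδ T cells, αβ T cells and ILC2.

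**Figure D3:**
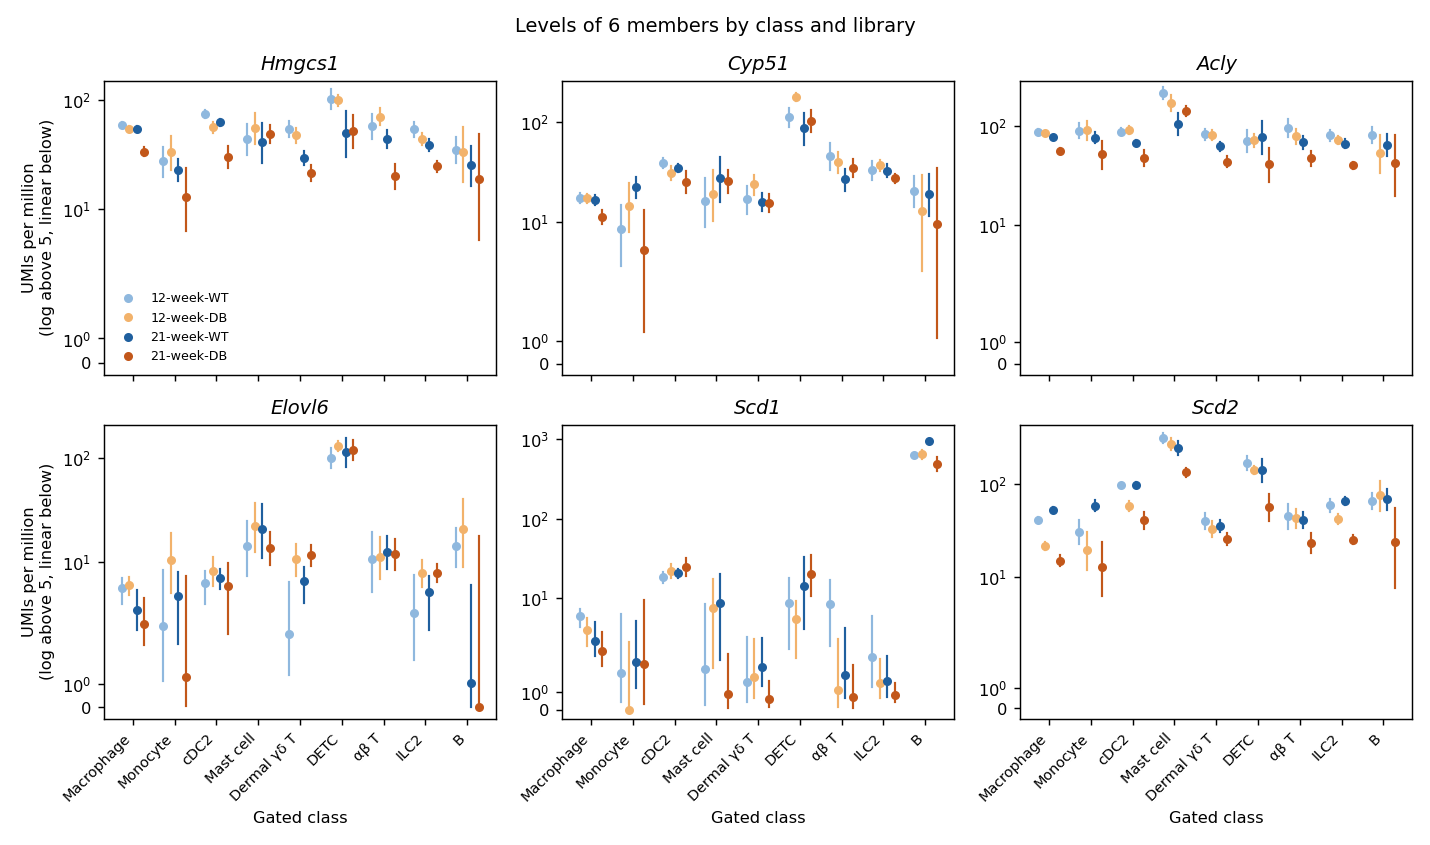
Levels of Hmgcs1, Cyp51, Acly, Elovl6, Scd1 and Scd2 in CPM (vertical axis, logarithmic above 5 and linear below) in the 9 gated classes, with 1 point per library and its exact 95% counting interval. Cyp51 and Elovl6 peak in DETC, Acly and Scd2 in mast cells and Scd1 in B cells, and the 21-week-DB point of Scd2 is below the 21-week-WT point in every class.

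Mast cells, long-lived granule-filled cells of the skin, had 6 members higher and 8 lower, near the shares of all genes (25.8% and 24.0%). Next to Scd2, those at least 2-fold higher were Acly (220, 172, 106 and 144 CPM; log2 difference 1.22) and Stard4, the cholesterol carrier (60.8, 59.1, 73.0 and 79.2; 1.49). Those at least 2-fold lower were all sterol enzymes: Pmvk by -1.63, Sqle by -1.52, Fdft1 by -1.50, Fdps by -1.44, and Mvd, which had 0, 1, 2 and 0 UMIs. Fdft1 lost its call without 21-week-DB (adjusted p = 0.0730). Mast cells had the fewest UMIs per cell (medians of 1431.5 to 2071). The part of that depth in these differences was not tested, and with mast cells left out of the fit DETC still had the most members called higher of the 8 remaining classes.

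In cDC2 the sterol branch was called higher for 10 of its 17 tested genes and lower for none. Over the module 13 were higher and 2 lower (30.3% and 25.8% of all genes), each sterol gene by under 2-fold. With total UMIs in place of TMM scaling the split was 11 and 7. Cycling cells were 8.02% to 12.3% of cDC2 and at most 9.68% of the cells of the other 8 classes.

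Macrophages and monocytes were at the low side for fatty acids. In macrophages 8 members were higher, all in the sterol branch, and 10 lower (36.9% and 30.5% of all genes). The lower ones included 5 of the 6 fatty acid genes, with Fasn at 13.1, 10.7, 11.4 and 7.04 CPM (log2 difference -1.56), Elovl6 at 5.58, 5.89, 4.26 and 3.62 (-1.34), Scd2 (-1.07), and in the carrier group Stard4 (-1.04). Scd1 was counted among them with the limit given above, a comparison with a mean that held B cells. In monocytes 3 were higher and 15 lower (26.6% and 24.4%). Hsd17b7 (-2.25), Lss (-1.75), Fasn (-1.72), Scd1 (-1.67), Stard4 (-1.54), Acat2 (-1.36) and Srebf2 (-1.06) were at least 2-fold lower there, and Mvd alone was at least 2-fold higher (1.54; 28, 18, 28 and 8 UMIs). Acat2 lost its call without 21-week-WT (adjusted p = 0.0918), and that of Scd1 was lost in the settings given above.

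The lymphoid classes other than DETC had fewer calls. Dermal γδ T cells had 6 members higher and 8 lower (26.8% and 21.3% of all genes), αβ T cells 5 and 2 (21.1% and 18.4%) and ILC2 5 and 5 (25.7% and 20.2%). With total UMIs in place of TMM these splits were 9 and 5, 9 and 2, and 8 and 5. Apart from Scd1, the members past 2-fold were Mvd in dermal γδ T cells (12.03, 12.7, 9.79 and 11.4 CPM, just over 2-fold higher) and Fdft1, squalene synthase, in αβ T cells (11.6, 17.8, 12.4 and 11.6; 1.18). In B cells 3 were higher and 11 lower (20.7% and 23.5%). Mvk (-1.37), Lss (-1.27), Fdps (-1.04) and Ebp (-1.02) were at least 2-fold lower in B cells, from 9, 9, 27 and 56 UMIs over the 4 libraries. The count of lower members was 4 without 12-week-WT, 6 without 12-week-DB and 4 without 21-week-WT, and both Mvk and Lss lost their calls when any 1 of these 3 libraries was left out.

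A list of 18 related genes, outside the module, was read in the same fit. Macrophages had 9 of 18 higher and 3 lower (36.9% and 30.5% of all genes), among them the sterol sensor Nr1h3 (LXRα; log2 difference 4.23), the cholesterol exporter Abca1 (2.15), Tmem97 (1.08) and Ch25h, which makes 25-hydroxycholesterol (4.41). DETC had 4 higher and 1 lower (25.5% and 23.9%), and those 4 were at least 2-fold higher: Acss2, which makes acetyl-CoA from acetate (1.85), Elovl5 (1.54), Acsl3 (1.05) and Lpin1 (1.02). Mast cells had 8 higher and 3 lower (25.8% and 24.0%), led by Mylip, a ligase for lipoprotein receptors (2.82), Lpin1 (1.76) and Abca1 (1.38). Abca1 was lower in dermal γδ T cells (-1.83), ILC2 (-1.64) and αβ T cells (-1.50). The others past 2-fold were Soat1 (1.44), Nr1h3 (3.01) and Ch25h (1.88) as higher and Lpin1 (-1.44) as lower in monocytes, Lpin1 in cDC2 (-1.58), Elovl5 in macrophages (-1.06), and Abca1 (1.24), Tmem97 (-1.07) and Lpin1 (-1.80) in B cells. The counts of higher and lower genes were 5 and 7 in monocytes (26.6% and 24.4% of all genes), 4 and 9 in cDC2 (30.3% and 25.8%), 2 and 5 in dermal γδ T cells (26.8% and 21.3%) and also in αβ T cells (21.1% and 18.4%), 5 and 4 in ILC2 (25.7% and 20.2%), and 5 and 5 in B cells (20.7% and 23.5%). The counts of ILC2 and B cells, and the counts of higher genes in DETC and monocytes, are near those shares.

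To compare DB with WT, ratios of summed levels were formed in the 6 classes with at least 150 gated cells in every library. A member was counted as measured with at least 50 UMIs over both libraries and was named past 1.5-fold. These values compare libraries, not animals. Of 134 such named ratios, 64 stayed past 1.5-fold in the same direction under every one of up to 11 other settings (cell filters, gates, ambient subtraction and scalings), and beside each comparison those members are named. The DB/WT ratios at the same age and the ratios between ages share libraries, so they are given side by side.

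At 21 weeks the module was lower in DB macrophages, at 499 (488 to 511) CPM against 695 (683 to 708), a log2 ratio of -0.48 (-0.52 to -0.44) where the median of all genes was 0.06. The branches were not alike: the regulators and carrier were at -0.77 (-0.86 to -0.68), the fatty acid branch at -0.81 (-0.91 to -0.72) and the sterol branch at -0.24 (-0.29 to -0.18). Scd2 weighed heavily in the fatty acid sum. The branch was at 164 CPM in WT and 93.3 in DB, of which Scd2 held 53.3 and 15.1. The median log2 ratio of the 6 fatty acid genes was -0.58, and all 6 were below 0. Of 28 measured members, 8 were at least 1.5-fold lower, against 8.19% of all genes, and 1 was higher, against 13.9%. Insig1, Stard4, Srebf2, Acaca and Scd2 stayed past 1.5-fold in every setting, while Hmgcs1 (-0.50 with the looser gate), Sqle, Fasn and Hsd17b7 did not. In macrophages the 5-marker stromal sum was 199, 69.4, 271 and 98.1 CPM, and the adipocyte sum was 1.13, 0.344, 0.398 and 0.279, with Adipoq, the defining marker, at 0 in 3 of the 4 libraries. Fewer transcripts per cell and fewer expressing cells cannot be told apart in such sums. The part of these sums in the ratios was not tested.

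Scd2 had the lowest ratio of all members, at 41.7, 21.7, 53.3 and 15.1 CPM in macrophages. Both DB libraries were below both WT libraries, and the share of all genes with that order was not counted. Its log2 DB/WT ratio was -1.82 (-2.04 to -1.60) at 21 weeks and -0.95 (-1.12 to -0.77) at 12 weeks. Scd2 was also past 1.5-fold lower at 21 weeks in ILC2 (25.4 against 66.02 CPM), cDC2 (41.1 against 99.4 CPM), mast cells (135 against 249) and αβ T cells (23.6 against 41.5). In dermal γδ T cells it was 26.02 against 35.7, a log2 ratio of -0.45 (-0.76 to -0.15), which did not reach 1.5-fold.

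Of the regulators and carrier, 3 of 4 passed 1.5-fold in macrophages, and Srebf1 (18.6 against 23.1 CPM) did not. Srebf2 was at 60.03, 57.2, 64.9 and 35.1 CPM (log2 DB/WT at 21 weeks -0.89, -1.04 to -0.74), its target and brake Insig1 at 63.2, 45.4, 67.5 and 37.9 (-0.83, -0.98 to -0.68), and Stard4 at 18.6, 14.5, 17.3 and 9.62 (-0.84, -1.14 to -0.55). For these 3 genes the 21-week-DB library was the lowest, and for Insig1 and Stard4 the 12-week-DB library was low as well. The log2 DB/WT ratio of Srebf2 at 12 weeks was -0.07 (-0.20 to 0.05). In the sterol branch Hmgcs1, the HMG-CoA synthase at the entry of the route, was at 59.8, 54.7, 54.5 and 33.9 (-0.69, -0.85 to -0.53) and Sqle at 19.8, 25.8, 22.0 and 12.5 (-0.82, -1.08 to -0.56). Both enzymes that commit carbon to fatty acids were lower too, the carboxylase Acaca at 7.95 against 13.1 and Fasn at 7.04 against 11.4. Hsd17b7 went the other way, at 11.7 against 7.72 CPM (0.60, 0.27 to 0.94). Ebp, the sterol isomerase, was at 55.3 against 57.1, with an interval of the log2 ratio that spanned 0.

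**Figure D4:**
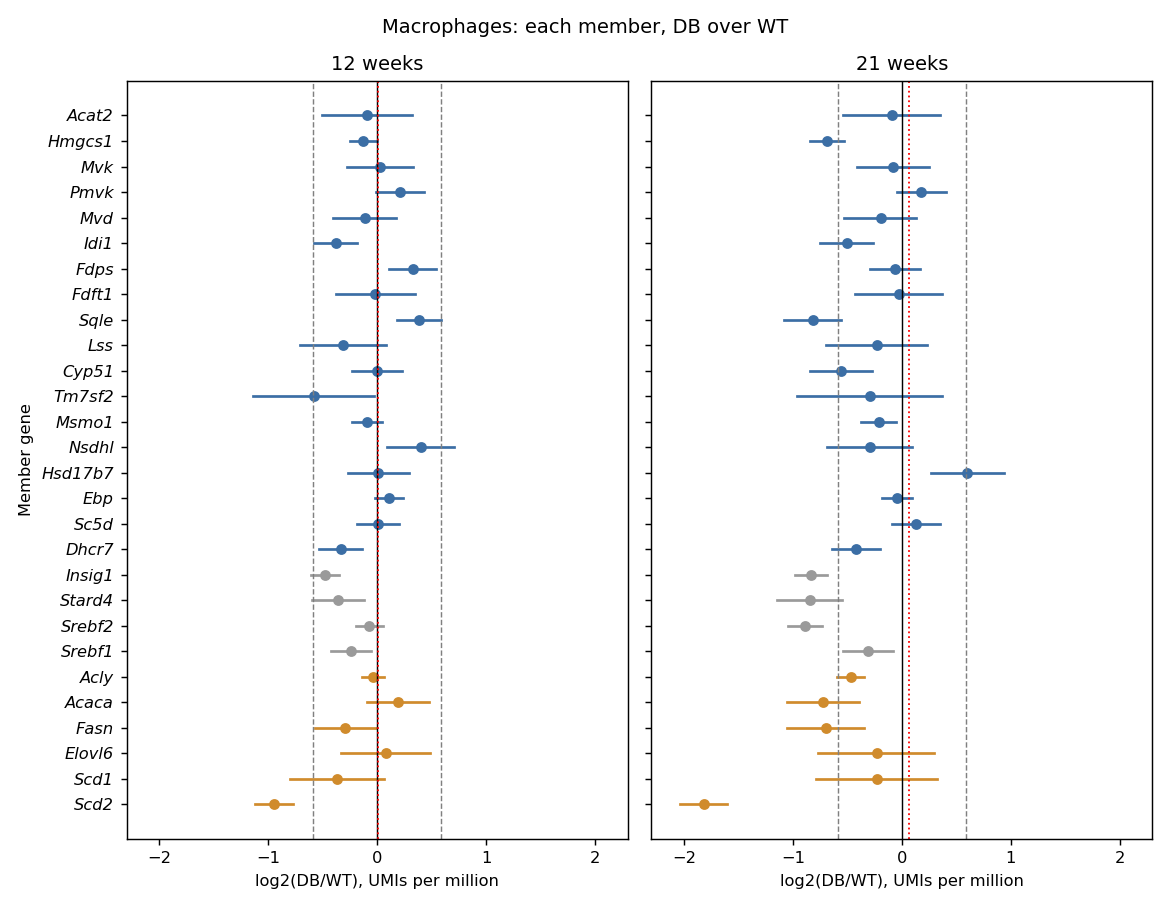
Log2 ratio of DB over WT in macrophages for each member (rows) at 12 weeks (left) and 21 weeks (right), with exact 95% counting intervals, blue for the sterol branch, grey for regulators and carrier and orange for the fatty acid branch. Dashed lines mark 1.5-fold and the red dotted line the median of all genes. Most members sit near 0 at 12 weeks apart from Scd2 (-0.95), and 8 lie left of the lower dashed line at 21 weeks.

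The promoters of the members that were lower in these macrophages are shown for the letters that the pathway's factors are known to read. RefSeq windows (GRCm38.p6, from 250 bases before to 50 after a start site) were listed for 22 of the 28 members, in 27 windows, and were searched on both strands for TCACNCCAC, a core of the sterol regulatory element bound by SREBPs, for CCAAT, bound by their partner NF-Y, and for CACGTG, the E-box. CCAAT was present in 20 of 27 windows (74.1%, 19 genes) against 37.4% of all 32851 windows. TCACNCCAC was in 1 window, that of Hmgcs1, against 1.24% of all windows, and CACGTG in 4 (14.8%) against 7.15%. Below are the members at least 1.5-fold lower in 21-week-DB macrophages with a window outside the annotated gene, cut where the gene begins, each 5′ to 3′ on the strand of the gene, with CCAAT (or its complement ATTGG) and TCACNCCAC in capitals.
Hmgcs1, chr13:119690101-119690350, plus strand: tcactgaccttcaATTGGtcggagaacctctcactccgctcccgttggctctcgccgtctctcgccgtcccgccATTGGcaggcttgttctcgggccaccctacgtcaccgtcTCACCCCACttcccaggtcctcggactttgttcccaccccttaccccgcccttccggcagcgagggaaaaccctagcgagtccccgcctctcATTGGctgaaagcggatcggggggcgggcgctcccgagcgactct
Insig1, chr5:28071162-28071362, plus strand: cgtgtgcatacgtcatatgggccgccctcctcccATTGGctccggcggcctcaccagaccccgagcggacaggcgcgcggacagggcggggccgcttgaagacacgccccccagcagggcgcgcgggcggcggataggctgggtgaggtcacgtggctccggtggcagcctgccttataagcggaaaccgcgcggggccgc
Srebf2, chr15:82147019-82147180, plus strand: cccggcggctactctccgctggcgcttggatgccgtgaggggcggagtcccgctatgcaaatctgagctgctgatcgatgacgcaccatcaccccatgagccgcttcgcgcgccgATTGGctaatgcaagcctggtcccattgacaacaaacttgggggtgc
Fasn, chr11:120824548-120824797, minus strand: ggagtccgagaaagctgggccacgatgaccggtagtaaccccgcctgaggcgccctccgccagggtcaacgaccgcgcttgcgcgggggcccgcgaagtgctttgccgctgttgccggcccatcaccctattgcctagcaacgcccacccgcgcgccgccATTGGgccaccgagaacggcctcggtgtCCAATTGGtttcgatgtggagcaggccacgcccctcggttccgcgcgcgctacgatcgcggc
Hmgcs1 holds 3 CCAAT matches around its TCACNCCAC, which begins 137 bases before the start site, Fasn holds 3, of which 2 overlap, and Insig1 and Srebf2 hold 1 each. A match is a description of the letters in the window, and windows for Sqle, Stard4 and Scd2 were not listed. Acaca, also lower, had a window that lay inside its annotated gene and held 0 matches of CCAAT and of TCACNCCAC.

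In cDC2 at 21 weeks the module was 529 (500 to 558) CPM in DB against 796 (779 to 812) in WT, a log2 ratio of -0.59 (-0.68 to -0.51) with the median of all genes at 0.01. There, 10 of 26 measured members were at least 1.5-fold lower (11.6% of all genes) and 1 was higher (12.5%). Srebf2, the leading member of this class, was at 130.2, 105.9, 108 and 64.7 CPM, and Hmgcs1 at 74.5, 56.4, 63.04 and 30.3. Stard4 (7.05 against 23.96 CPM), Sqle (6.64 against 18.7), Scd2 (41.1 against 99.4), Insig1 (25.3 against 51.1), Idi1 (17.01 against 32.8) and Fasn (15.8 against 27.1) were low with them. Mvk and Nsdhl were counted too, from 10 and 6 UMIs in DB. Mvk, Stard4, Srebf2, Fasn and Scd2 stayed past 1.5-fold lower in every setting. The others depended on the gate. With the looser gate the log2 ratio of Hmgcs1 was -0.57 in place of -1.06, that of Sqle -0.56 in place of -1.50, that of Idi1 -0.43 in place of -0.95 and that of Nsdhl -0.48 in place of -1.67, and with the stricter gate Insig1 went from -1.01 to -0.21. Pmvk was higher, at 29.04 against 17.3 CPM, and its log2 ratio of 0.74 became 0.05 under the stricter gate. The 21-week-DB library had 187 cDC2 and 21-week-WT had 803.

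In ILC2, the innate lymphocytes that make type 2 cytokines, the module was 542 CPM in 21-week-DB against 671 in 21-week-WT, a log2 ratio of -0.31 (-0.36 to -0.25) with the median of all genes at -0.07. The lower part was again in the regulators, at -0.46 (-0.57 to -0.34), and the fatty acid branch, at -0.71 (-0.82 to -0.59), while the sterol branch was at -0.04 (-0.12 to 0.05). The fatty acid sum was at 187 CPM in WT and 114.6 in DB, of which Scd2 held 66.02 and 25.4. Of its 5 measured genes, 4 were below 0 and 1 above, with a median of -0.58. Lower past 1.5-fold were 8 of 26 measured members (14.8% of all genes), and higher were 2 (11.7%). Srebf1, which drives fatty acid genes, was at 33.96, 27.4, 34.2 and 14.5 CPM, Acly at 81.0, 72.8, 66.7 and 40.1 and Scd2 at 59.3, 42.3, 66.02 and 25.4. The 21-week-DB library held the low value of each. Hmgcs1, Fdft1, Sqle, Hsd17b7 and Srebf2 were lower as well, by -0.63 to -0.86. Mvk (9.19 against 3.60 CPM) and Elovl6 (7.81 against 5.04) were higher. Mvk, Hsd17b7, Srebf1, Acly and Scd2 stayed past 1.5-fold in every setting, and without cycling cells Fdft1 was at -0.27. Cycling markers in ILC2 were at 241, 152, 225 and 32.6 CPM. With cells carrying cycling markers left out, the log2 ratio of the module was -0.26.

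Dermal γδ T cells and αβ T cells had a higher sterol branch in DB than in WT at 21 weeks. In dermal γδ T cells it was 300 CPM in DB against 259 in WT, a log2 ratio of 0.21 (0.11 to 0.31), and in αβ T cells 332 against 287, also 0.21 (0.07 to 0.35), with medians of all genes at 0.02 and 0.03. The regulators were lower in both, at -0.49 (-0.63 to -0.35) and -0.40 (-0.59 to -0.21). In dermal γδ T cells 4 members were higher past 1.5-fold (13.6% of all genes) and 2 lower (10.7%) of 26. Mvk led, at 9.22, 8.96, 3.84 and 14.4 CPM (1.90, 1.22 to 2.64), followed by Elovl6 (0.83), Lss (0.81) and Idi1 (0.59), and the lower ones were Srebf2 (39.0 against 65.9 CPM) and Srebf1 (18.5 against 30.1). In αβ T cells 3 of 22 were higher (13.7%), Pmvk (16.5 against 5.98 CPM), Acat2 (with an interval that reached 0) and Idi1, and 4 lower (11.3%), Hmgcs1 (20.1 against 44.3 CPM), Srebf1, Scd2 and Srebf2. The count of higher members in αβ T cells and both counts of dermal γδ T cells are near the shares of all genes. Past 1.5-fold in every setting were Mvk, Lss, Srebf2 and Srebf1 in dermal γδ T cells and Hmgcs1, Srebf1 and Scd2 in αβ T cells, where Pmvk was at 0.54 with the looser gate in place of 1.47 and Idi1 at 0.23 with the stricter gate in place of 0.68. Cycling markers in dermal γδ T cells were at 399, 338, 360 and 38.5 CPM.

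The module of mast cells was 751 against 855 CPM at 21 weeks, a log2 ratio of -0.19 (-0.33 to -0.04), and Scd2 was the 1 member of 10 measured past 1.5-fold (13.3% of all genes were higher and 13.1% lower). Scd2 stayed past 1.5-fold there in every setting.

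**Figure D5:**
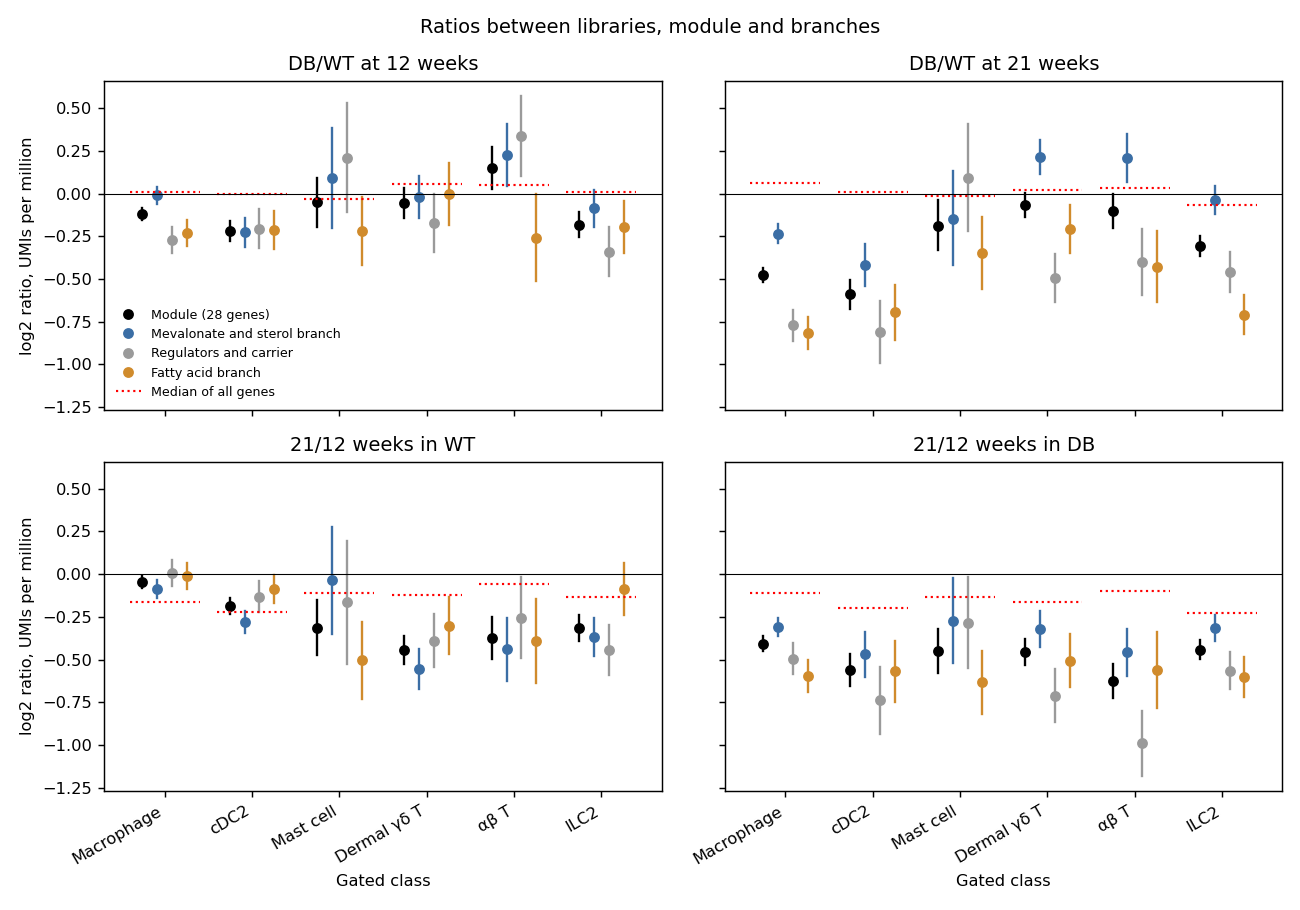
Log2 ratios of summed levels for the module and its branches (vertical axis) in the 6 classes compared (horizontal axis), DB over WT above and 21 over 12 weeks below, with exact 95% counting intervals and the median of all genes as a red dotted line. At 21 weeks the grey and orange points lie well under the blue one in macrophages, ILC2, dermal γδ T cells and αβ T cells, with regulators at -0.77, -0.46, -0.49 and -0.40.

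At 12 weeks fewer members passed 1.5-fold. The log2 DB/WT ratio of the module was -0.12 (-0.15 to -0.08) in macrophages, -0.22 (-0.28 to -0.16) in cDC2, -0.18 (-0.26 to -0.11) in ILC2, -0.06 (-0.14 to 0.03) in dermal γδ T cells, -0.05 (-0.20 to 0.09) in mast cells and 0.15 (0.02 to 0.27) in αβ T cells. The sterol branch of macrophages was at 378 against 381 CPM, with an interval of -0.06 to 0.04. Their regulators and carrier were lower at -0.27 (-0.35 to -0.19), as was the fatty acid branch at -0.23 (-0.31 to -0.15). In ILC2 these were at -0.34 (-0.48 to -0.20) and -0.20 (-0.35 to -0.04), with the sterol branch at -0.09 (-0.19 to 0.02). In cDC2 the sterol branch was at -0.23, the regulators and carrier at -0.21 and the fatty acid branch at -0.21. Scd2 was the 1 member past 1.5-fold in macrophages (4.57% of all genes higher, 8.41% lower) and in cDC2 (3.1% and 4.37%), being lower in both, at 58.9 against 97.5 CPM in the latter. With the stricter gate the cDC2 ratio was -0.43 in place of -0.73, under 1.5-fold. In αβ T cells Srebf2 (121 against 78.1 CPM), Msmo1 and Ebp were higher and no member was lower (7.54% and 3.34% of all genes), the last 2 with intervals that reached 0, and none of the 3 stayed past 1.5-fold in every setting. Insig1 (40.7 against 66.8 CPM) and Mvd were lower in ILC2 (4.87%), where Elovl6 was higher from 46 and 11 UMIs (5.37%) with an interval that reached 0. Of these, Mvd alone stayed past 1.5-fold in every setting. Acat2 alone passed in dermal γδ T cells, as higher from 39 and 18 UMIs with an interval that reached 0 (5.18% of all genes higher, 3.32% lower). Dhcr7, the last reductase of the route, alone passed in mast cells, as lower from 16 and 38 UMIs (5.54% and 7.21%). Scd2 in macrophages, Acat2 in dermal γδ T cells and Dhcr7 in mast cells stayed past 1.5-fold in every setting.

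Between ages the median of all genes itself was below 0, by -0.06 to -0.23 on the log2 scale in these classes, and changes are read against it. The 21-week libraries were also processed with a later Cell Ranger, which cannot be told apart from age. In WT mice dermal γδ T cells had the lowest module ratio of the 6 classes, with 571 CPM at 21 weeks against 778 at 12, a log2 ratio of -0.45 (-0.53 to -0.36) where the median gene was at -0.12. Its interval overlapped those of αβ T cells, mast cells and ILC2. All 24 measured members were below 0 there and 8 were past 1.5-fold lower (3.38% of all genes higher, 11% lower): Hmgcs1 (29.7 at 21 weeks against 54.5 CPM at 12), Msmo1 (16.8 against 30.1), Insig1 (27.1 against 47.3), Idi1, Sqle, Lss, Nsdhl and Dhcr7. In ILC2 the ratio was -0.32 (-0.39 to -0.24) with 6 of 24 lower (3.09% of all genes higher, 11.4% lower), Mvd, Idi1, Msmo1, Nsdhl, Dhcr7 and Insig1. αβ T cells gave -0.37 (-0.50 to -0.25) with 4 of 17 lower (6.75% and 10.1%), Idi1, Sqle, Cyp51 and Insig1. Mast cells were at -0.31 (-0.47 to -0.15), with 2 of 7 lower, Acly at 106 against 220 CPM and Insig1 at 24.3 against 54.9 CPM (8.83% of all genes higher, 18.1% lower). Past 1.5-fold in every setting were Sqle, Dhcr7 and Insig1 in dermal γδ T cells, Mvd and Nsdhl in ILC2, Idi1 and Insig1 in αβ T cells and both genes in mast cells. Hmgcs1 in dermal γδ T cells was at -0.52 with the stricter gate in place of -0.88, and Idi1 in ILC2 at -0.13 with at most 5% mitochondrial UMIs in place of -0.67. Sqle in αβ T cells turned from -0.60 to 0.47 with the stricter gate.

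In WT macrophages the module was above the median gene, and in cDC2 the median gene lay within the interval of the module. The module ratio was -0.05 (-0.08 to -0.01) in macrophages and -0.19 (-0.23 to -0.14) in cDC2, where the median genes were at -0.16 and -0.22, so that centred on the median gene the ratios turned to 0.12 and 0.032. Hsd17b7 alone passed 1.5-fold in macrophages, as lower (3.56% of all genes higher, 11.7% lower), and Mvd, Fdft1, Lss, Nsdhl and Hsd17b7 did in cDC2 (2.52% and 17%). Of these 6 ratios, that of Nsdhl alone stayed past 1.5-fold in every setting.

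In DB mice the 21-week level was lower in each of the 6 classes, and past the median gene. The log2 ratios of the module were -0.41 (-0.45 to -0.36) in macrophages, -0.56 (-0.65 to -0.47) in cDC2, -0.45 (-0.58 to -0.32) in mast cells, -0.46 (-0.53 to -0.38) in dermal γδ T cells, -0.63 (-0.72 to -0.53) in αβ T cells and -0.44 (-0.50 to -0.39) in ILC2. The members lower past 1.5-fold numbered 10 of 28 in macrophages (13.3% of all genes), 10 of 24 in cDC2 (21.2%), 10 of 26 in dermal γδ T cells (20.3%), 9 of 22 in αβ T cells (18.1%), 10 of 26 in ILC2 (23.3%) and 3 of 11 in mast cells (19.8%). No member was past 1.5-fold higher in macrophages, cDC2, ILC2 or mast cells (10.5%, 7.31%, 6.51% and 11.4% of all genes). Srebf2 was among them in macrophages, cDC2, dermal γδ T cells, αβ T cells and ILC2, and in αβ T cells it stood at 53.5 CPM at 21 weeks against 121 at 12. Hmgcs1 was among them in the same 5 classes, with 20.1 against 71.1 CPM in αβ T cells. In macrophages the others were Sqle, Cyp51, Nsdhl, Stard4, Acly, Acaca, Fasn and Elovl6. Hmgcs1 stayed past 1.5-fold in every setting in dermal γδ T cells, αβ T cells and ILC2, but was at -0.53 in macrophages with the looser gate and at -0.47 in cDC2 with the stricter gate. Srebf2 did so in dermal γδ T cells and αβ T cells. In macrophages Sqle and Nsdhl alone did. Others that did were Idi1, Sqle, Nsdhl, Stard4 and Acly in cDC2, Insig1 and Scd2 in mast cells, and Nsdhl, Srebf1 and Acly in ILC2. In dermal γδ T cells they were Mvk, Sqle, Nsdhl, Hsd17b7, Srebf1 and Acly, and in αβ T cells Dhcr7, Insig1, Srebf1 and Acly. Higher past 1.5-fold were Mvk in dermal γδ T cells (8.22% of all genes) and Acat2 in αβ T cells (10.0%).

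Among the related genes in macrophages, Abca1 was at 346, 173, 255 and 131 CPM, and Lpin1 at 41.8, 22.8, 29.99 and 17.8. Both DB libraries were below both WT libraries in each, an order whose share over all genes was not counted. Ch25h was at 27.2, 6.43, 15.8 and 12.3 and Mylip at 99.4 and 51.1 at 12 weeks. Nr1h3 (10.5 against 5.85) and Acss2 (9.90 against 5.79) were higher in DB at 21 weeks. Past 1.5-fold at 21 weeks 2 of 18 were higher and 2 lower, against 13.9% and 8.19% of all genes. At 12 weeks 4 were lower (8.41%) and no gene was higher (4.57%). In cDC2 at 21 weeks Abca1 stood higher in DB, at 93.8 against 37.7 CPM, with Soat1, which esterifies cholesterol, at 88.8 against 51.7, and Scap, the escort of SREBPs, lower at 13.7 against 29.97. Acss2 was also higher there past 1.5-fold, and Mbtps1 and Lpin1 were lower. That made 3 of 16 measured genes higher and 3 lower, against 12.5% and 11.6% of all genes. Scap was also lower in DB at 21 weeks in ILC2 (19.7 against 35.1) and dermal γδ T cells (21.8 against 34.4), and Insig2 was higher in both (30.03 against 16.6, and 30.3 against 19.7). Abca1 and Abcg1 were lower in ILC2 too, and in dermal γδ T cells Abcg1 was lower and Acss2 higher. Of 16 measured, 1 was higher and 3 lower in ILC2 (11.7% and 14.8% of all genes). In dermal γδ T cells 2 were higher and 2 lower of 16 (13.6% and 10.7%). The counts of these classes are near those shares.

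With every cell thinned to 2000 UMIs and shallower cells left out (41 to 53 macrophages per library), 71.8%, 71.0%, 69.6% and 60.8% of macrophages had a module UMI, against 95.7%, 97.6%, 96.3% and 94.7% unthinned. The tenth of macrophages with the most module UMIs held 25.7% to 30.8% of them. In DETC 90.3%, 93.0%, 84.6% and 82.3% of thinned cells had a module UMI. The mean was 2.71, 3.13, 2.48 and 2.12 module UMIs per thinned DETC against 1.42, 1.32, 1.29 and 0.970 per thinned macrophage, so DETC stood above macrophages at equal depth too. No class lacks these genes, so none could serve as the background of these shares.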

How the data were processed

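Single cell RNA-seq libraries of sorted CD45+ hindpaw cells were read as gene by barcode UMI counts, deposited by the authors as Cell Ranger matrices aligned to mm10. File headers name Cell Ranger 5.0.0 for the 12-week libraries and 6.0.0 for the 21-week libraries. Cell Ranger counts no read that matches several genes. The study corrected ambient RNA later in its pipeline, which was not repeated in the main analysis here.

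The 28 members, the marker lists, the 18 related genes and the naming rules were chosen with earlier results of these data known. In a class comparison, members past an adjusted p of 0.05 and 2-fold were named, and in a ratio between libraries, members past 1.5-fold with at least 50 UMIs. Others are named for their level or as contrasts. Cells were gated by mean scaled expression of 5 markers per class (score of at least 0.25 and 0.1 above the next class), a scoring rule set after the files were seen. The classes compared between libraries had at least 150 cells in every library, a limit chosen after cell numbers were seen. Labels carry no replicate numbers.

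UMI counts were summed per library and class and tested with edgeR 4.0.16 (R 4.3.3; quasi-likelihood, TMM, library block) over 12208 genes, with DESeq2 1.42.0 as an alternative. Of the members 27 were tested, and Tm7sf2 was under the filter on low counts. On simulated data with macrophage changes of 2-, 0.5-, 4- and 0.25-fold, 96%, 86%, 100% and 98% of 50 changed genes each were recovered. False calls numbered 4, or 0.0333% of the unchanged genes. The classes were otherwise simulated with the same profile, and changes in smaller classes such as DETC or B cells were not simulated. Ratios carry exact conditional binomial intervals and levels exact Poisson ones, at 95%. Reads of one cell pool are not independent animals, so these cover counting error only. Scrublet (scanpy 1.11.5) made 0 to 2 calls per library by its own threshold and was used only as an alternative that removed the 253 to 636 highest scores. Overlap of genes can mix counts: Tm7sf2 overlaps Vps51 on the same strand. Leaving out shared barcodes and leaving out mast cells were alternatives added after seeing the data.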

Additional observations from a re-analysis of the deposited data

Results flagged for a closer look

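In αβ T cells the module was higher in DB at 12 weeks, with a log2 DB/WT ratio of 0.15, and lower at 21 weeks, with -0.10, and the signs were opposite. The same held for the regulators and carrier, at 0.34 and -0.40. With 1 library per group the difference between ages was not tested.

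Among classes with too few cells for any comparison, cDC1 of 21-week-DB had a module level of 1901 CPM, against 774 in 21-week-WT. That value rests on 14 cells, of which 3 held 55.4% of the module UMIs. The gate markers of cDC1 also differed between these libraries. Xcr1 was detected in 14.3% of the cDC1 of 21-week-DB against 72.6% in 21-week-WT, and Clec9a in 7.14% against 73.1%. Naaa was detected in 50% against 98.4%, Cd207 in 64.3% against 27.96%, and Irf8 in 100% in both. Whether the gate held the same cell type in both libraries was not tested, so these levels may compare different cells. Neutrophils of 21-week-DB had 747 CPM, against 303 in 21-week-WT, from 38 cells, of which 1 cell held 67.9% of the module UMIs, and the median cell had none.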

How the results depend on the processing

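No paired analysis was possible because the labels carry no replicate numbers and each condition is 1 library. Over all settings, 282 of 322 alternative counts of called members stayed within 1.5 times the reported count, 231 of 264 module ratios moved by less than their counting interval with 2 reversed, and 721 of 748 single gene class results kept their direction and side of the threshold. Depth limits B cells, monocytes, mast cells and DETC most, where up to 26, 19, 14 and 14 of the 28 members had under 10 UMIs in a library. The causes of the moves below were not tested.

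The count of lower members in cDC2 (2) was 1 after Scrublet removal, with the stricter gate, without the library block and with mast cells left out, 5 with the looser gate, 0 after ambient subtraction, 7 with total UMIs and 0 to 2 leaving out 1 library (0 without 12-week-WT or 12-week-DB, 1 without 21-week-DB). In dermal γδ T cells the lower count (8) was 5 with total UMIs, 4 without the block and 5 to 8 leaving out 1 library (5 without 21-week-WT). In DETC the lower count (2) was 1 at 5% mitochondrial UMIs, with the stricter gate, DESeq2 size factors, no block or mast cells left out, 5 with the looser gate and 1 to 3 leaving out 1 library (1 without 12-week-WT). In αβ T cells the higher count (5) was 3 with either other gate, without the block or with mast cells left out, 9 with total UMIs and 2 to 6 leaving out 1 library (3 without 12-week-WT or 12-week-DB, 2 without 21-week-DB), and the lower count (2) was 1 after ambient subtraction. In ILC2 the higher count (5) was 8 with total UMIs and the lower count (5) was 3 without the block. In B cells the lower count (11) was 6 at 5% mitochondrial UMIs and after ambient subtraction, 7 with either other gate, without shared barcodes or without the block, and 4 to 9 leaving out 1 library.

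The module log2 DB/WT ratio at 12 weeks was -0.070 in macrophages, -0.37 in cDC2 and -0.10 in ILC2 with the stricter gate, and -0.046 in macrophages and -0.080 in ILC2 as a mean over cells. At 21 weeks it was -0.41 in macrophages and -0.45 in cDC2 with the looser gate, -0.54 in macrophages and -0.24 in ILC2 centred on the median gene, -0.23 in ILC2 as a mean over cells, and 0.038 in dermal γδ T cells and -0.17 in ILC2 without mitochondrial and ribosomal genes. Between ages in WT it was -0.31 in cDC2 and -0.22 in ILC2 with the stricter gate, -0.25 in cDC2 with the looser gate and also without cycling cells, and -0.0051 in macrophages and -0.11 in cDC2 without mitochondrial and ribosomal genes. Centred on the median gene it reversed to 0.12 in macrophages and 0.032 in cDC2, and was -0.33 in dermal γδ T cells and -0.18 in ILC2. Between ages in DB it was -0.33 in macrophages and -0.45 in cDC2 with the looser gate. Without mitochondrial and ribosomal genes it was -0.33 in macrophages, -0.33 in dermal γδ T cells, -0.52 in αβ T cells and -0.30 in ILC2. Centred it was -0.30, -0.36, -0.32, -0.29 and -0.21 in macrophages, cDC2, mast cells, dermal γδ T cells and ILC2.

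Of 1473 alternative values of single gene ratios between libraries, 1445 stayed within their counting interval, 27 moved out of it and 1 reversed. Of 134 ratios past 1.5-fold, 70 fell under it in at least 1 setting, most often centred on the median gene or with the stricter or looser gate. Of single genes, Fdps in B cells reversed from -1.04 to 0.41 with the looser gate, and Sqle between ages in WT αβ T cells from -0.60 to 0.47 with the stricter gate. In B cells Mvk lost its call in 10 settings and Lss in 8.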
